A study of Rattus norvegicus with 8 samples.

Results

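The vessels of rat extraocular muscle, the muscle that turns the eye, were described through 42 genes of the vessel wall. Of these, 25 are genes of endothelial cells, which line every vessel, 10 are contractile genes of smooth muscle, which wraps arteries and arterioles, and 6 are genes of pericytes, which sit on capillaries. The last is Vegfa, a growth factor that surrounding tissue releases to make vessels grow. A gene was measured where a probe set of the array was annotated to it alone, and it was read from its brightest probe set, the one with the highest mean intensity over all arrays. This gave 38 of the 42 genes, out of 10412 genes named on the array, with 21 endothelial, 10 smooth muscle and 6 pericyte genes besides Vegfa. Cdh5, Tek, Sox18 and Ednrb were not analysed here.

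The samples were pieces of adult rat muscle cut out by laser, 4 captures of the orbital layer, on the side of the bony orbit, and 4 of the global layer, on the side of the eyeball. No treatment or genetic change is given for either layer, and strain, sex and the number of animals are not stated in the sources used here. RNA of each capture was amplified and hybridised to its own one-colour array. The labels do not tie captures to animals. If captures of one layer share an animal, the p-values below are smaller than they should be, and in any case they reflect capture-to-capture spread alone. Titles carry the prefix R2 or R3, 2 captures of each layer under each, and what the prefix stands for is not given.

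In skeletal muscle, capillaries run along the fibres and exchange oxygen and fuel, while arterioles upstream set the flow by the tone of their smooth muscle. Endothelial cells carry receptors for vascular growth factors, junction and adhesion proteins and enzymes that act on passing blood, and they are thought to answer low oxygen through growth factors from the fibres. Smooth muscle cells of arterioles hold their own myosin, actin and actin-binding proteins. Setting endothelial genes beside smooth muscle genes therefore compares the lining present in all vessels with the coat of the larger ones. In tissue RNA, fewer cells of a type and less RNA per cell cannot be told apart.

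Intensity is a linear brightness that had been scaled to one trimmed mean per array, and levels of different genes are not compared here because each probe set responds differently. Layer differences are mean log2(intensity + 1) in orbital captures minus that in global captures (4 each), given ± their standard error (SE). They were tested with limma over all 9520 probe sets whose mean log2 value reached the 40th percentile (an intensity of 39.4), with Benjamini-Hochberg adjustment, and a difference is said to pass at an adjusted p under 0.05. Of the 38 measured genes, 33 were bright enough to be tested: 19 endothelial, 8 smooth muscle and 5 pericyte genes and Vegfa. As a guide to background, the brightest of 27 bacterial control probe sets lay between 17.7 and 41.5 on the 8 arrays. The Gapdh control probes near the 3′ end, divided by those near the 5′ end, give a ratio that rises as RNA gets shorter, and it was 5.35 to 6.47 in the global captures, 6.33 and 5.81 in orbital captures 1 and 2, and 12.9 and 8.64 in orbital captures 3 and 4. The same ratio for beta actin did not set those captures apart, with 8.32 and 8.37 beside 7.69 to 10.7 in the global captures. Signal of the eye's photoreceptors was present in captures of both layers, with 8 such genes summing to 234 to 1837 in the global and 878 to 3150 in the orbital captures. All 6 of these that were tested were above 0, with a median layer difference of 1.27, larger than that of any other list used here, and 0 passed (limma; 1 at an unadjusted p under 0.05).

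Most endothelial genes were somewhat brighter in the orbital layer, while the smooth muscle genes leaned the other way and the pericyte genes were near even. Among 19 endothelial genes tested, 16 had a difference above 0 and 3 below it, with a median of 0.28, beside a median of 0.024 and 53.1% above 0 over all probe sets tested. Of all probe sets tested 7.41% passed, 3.91% rising and 3.50% falling, and of the 19 endothelial genes 1 rose, endoglin (Eng), and 0 fell (limma). Eng reached the filter for the test only through its orbital captures. At an unadjusted p under 0.05 there were 8 of the 19, all of them higher, where 21.6% of all probe sets tested had such a p and 11.7% were higher with it. Of 8 smooth muscle genes tested, 6 were below 0 and 2 above, with a median of -0.22, and 1 fell, the smooth muscle myosin Myh11. Of 5 pericyte genes tested, 0 rose and 0 fell (limma; 0 at an unadjusted p under 0.05), with a median of -0.06. In 5 of the 19 endothelial genes all orbital captures lay above all global captures, beside 7.31% of all probe sets, and in 2 of the 13 smooth muscle and pericyte genes all lay below, beside 6.75%.

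**Figure D1:**
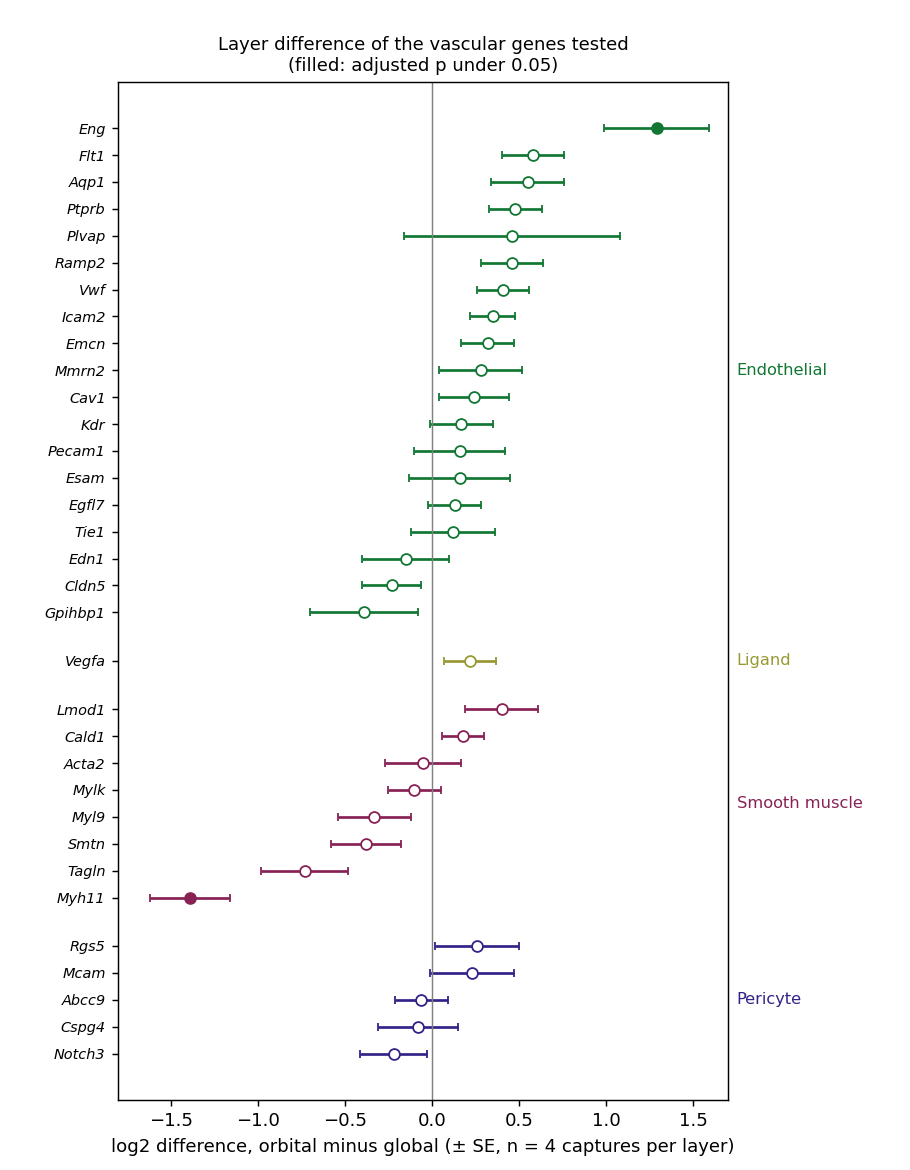
Layer difference of the 33 vascular genes tested, as log2 of orbital over global on the horizontal axis with bars for the SE (n = 4 captures per layer), sorted within each cell type. Eng at 1.29 and Myh11 at -1.39 are the filled points, which passed, and 16 of 19 endothelial points lie right of 0. Eng reached the filter only through its orbital captures.

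Endoglin is a co-receptor that presents ligands of the bone morphogenetic protein family to the endothelial receptor Acvrl1. Eng had an intensity of 20.2, 49.6, 27.3 and 33.6 in global captures 1 to 4 and 52.7, 103.9, 81.0 and 80.3 in orbital captures 1 to 4. All orbital captures were above all global captures, though orbital capture 1 was close to global capture 2, and global capture 4 was below the brightest bacterial control of its array. The difference was 1.29 ± 0.30 (SE, adjusted p = 0.0193 in limma), or 2.45-fold, with a 95% interval of 0.64 to 1.94. It was 1.2 within prefix R2 and 1.38 within R3. The call was lost without global capture 1 (adjusted p = 0.0534) or 3 (0.0523) or orbital capture 2 (0.0676) or 3 (0.0583), and with orbital captures 1 and 2 alone against all global captures (0.172). The value fell to 0.57 with a pseudocount of 64, since Eng was dim in the global captures. Eng averaged 32.7 in the global and 79.5 in the orbital captures, so it reached the filter of 39.4 only through the orbital captures.

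Flt1, a receptor that binds Vegfa and largely acts as a trap for it, did not pass (0.58 ± 0.18, adjusted p = 0.0708), and its 95% interval was 0.19 to 0.96. Its intensity was 66.1, 62.2, 73.2 and 52.2 in the global and 87.0, 103.0, 97.7 and 90.4 in the orbital captures, so the layers did not overlap. At other probe sets of Flt1, too dim for the test, the layers overlapped. Their means were 22.3 in the global and 29.6 in the orbital captures, and 20.0 in both layers. The promoters of Eng and Flt1 are shown because they belong to the endothelial receptors whose layers did not overlap and stand in the RefSeq promoter table used here (GRCr8 build, 250 bases before to 50 after the gene's start). Capitals mark GGAA and its reverse complement TTCC, the core that endothelial transcription factors of the ETS family are known to bind. The first lies at chr3:36332029-36332328 and the other at chr12:12333180-12333479, both on the plus strand, and both are written 5′ to 3′:
Eng: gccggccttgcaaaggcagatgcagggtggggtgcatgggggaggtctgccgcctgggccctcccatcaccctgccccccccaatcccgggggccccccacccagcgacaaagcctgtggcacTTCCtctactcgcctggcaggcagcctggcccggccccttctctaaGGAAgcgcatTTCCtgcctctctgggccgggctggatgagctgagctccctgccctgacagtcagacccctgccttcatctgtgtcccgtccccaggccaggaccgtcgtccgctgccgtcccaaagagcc
Flt1: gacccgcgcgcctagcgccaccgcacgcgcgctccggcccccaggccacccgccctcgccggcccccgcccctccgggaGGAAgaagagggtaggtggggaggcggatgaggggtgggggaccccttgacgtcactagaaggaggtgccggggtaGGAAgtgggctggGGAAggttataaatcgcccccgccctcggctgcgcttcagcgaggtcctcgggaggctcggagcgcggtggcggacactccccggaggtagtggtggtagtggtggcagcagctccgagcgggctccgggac
The Eng window held 1 GGAA and 2 TTCC, and the Flt1 window held 3 GGAA and 0 TTCC. Of 27457 rat promoters of the same length, 95.8% held the core on either strand and 66.7% held 3 or more, so that these counts match the median promoter, which held 3. GC content was 68.7% for Eng and 72.7% for Flt1, beside a median of 52.3%.

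Of the growth receptors and ligands among the 42 genes, the others had smaller differences than Eng and Flt1. Kdr, the main signalling receptor for Vegfa, had 473.1, 478.3, 360.4 and 465.2 in the global and 400.2, 572.6, 389.3 and 673.2 in the orbital captures. The layers overlapped widely, and the difference was 0.17 ± 0.18 with a 95% interval of -0.23 to 0.56. Tie1, an orphan receptor of the angiopoietin system, differed by 0.12 ± 0.24. Ptprb, a phosphatase that dampens angiopoietin signalling, had 559.4, 662.1, 633.0 and 563.4 in the global and 692.0, 810.2, 807.4 and 1097.6 in the orbital captures. Its layers did not overlap, with orbital capture 4 well above the rest, but the difference of 0.48 ± 0.15 did not pass (adjusted p = 0.0688). Vegfa itself had 267.1, 274.1, 247.2 and 233.8 in the global and 223.8, 300.4, 321.3 and 360.0 in the orbital captures. Both the lowest and the highest value were orbital, and Vegfa differed by 0.22 ± 0.15 (adjusted p = 0.456), by -0.06 within prefix R2 and by 0.50 within R3. A second Vegfa probe set, too dim for the test, averaged 39.4 in the global and 35.4 in the orbital captures. Ramp2, the partner that turns a calcitonin-type receptor into one for adrenomedullin, differed by 0.46 ± 0.18 (adjusted p = 0.169), and Edn1, the constrictor peptide endothelin, by -0.15 ± 0.25.

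Adhesion and junction genes of endothelium were mostly brighter in the orbital layer without passing. Vwf, the clotting factor that endothelium stores, had 123.8, 131.1, 157.7 and 121.1 in the global and 165.2, 162.0, 203.6 and 177.2 in the orbital captures. The layers came close but did not overlap (0.41 ± 0.15, adjusted p = 0.123). Icam2, an adhesion protein for leukocytes, had 188.4, 218.7, 197.0 and 218.7 in the global and 225.2, 292.9, 270.4 and 263.8 in the orbital captures. Here too the layers did not overlap, with orbital capture 1 near the global range (0.35 ± 0.13, adjusted p = 0.142). Emcn, a surface sialomucin, differed by 0.32 ± 0.15, Mmrn2, a matrix protein of the endothelial surface, by 0.28 ± 0.24, and Esam, a tight junction adhesion molecule, by 0.16 ± 0.29. Pecam1, the general endothelial adhesion molecule, was 35.1 to 60.2 in the global and 37.5 to 66.6 in the orbital captures, a difference of 0.16 ± 0.26. Its difference was 0.52 within prefix R2 and -0.19 within R3. Cldn5, the claudin of endothelial tight junctions, was among the 3 genes below 0 (-0.23 ± 0.17). Egfl7, a factor secreted by endothelium, differed by 0.13 ± 0.15 at its brightest probe set. At a second probe set all orbital values of Egfl7 lay below all global values (-0.27 ± 0.14), so its direction is unsettled.

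Genes tied to capillary exchange did not move as one. Gpihbp1, which anchors lipoprotein lipase to the capillary wall, had the lowest endothelial difference at -0.39 ± 0.31, with 57.4, 77.4, 71.2 and 127.6 in the global and 32.2, 66.4, 73.1 and 86.8 in the orbital captures. The layers overlapped in most captures. Plvap, the protein of the diaphragms of fenestrated capillaries, spread from 14.2 in global capture 2 to 152.2 in orbital capture 3. It differed by 1.44 within prefix R2 and by -0.51 within R3, and its pooled difference of 0.46 ± 0.62 was smaller than its error. In 2 captures it was below the brightest bacterial control. Aqp1, the water channel of endothelium and also of red cells, had 238.4, 196.4, 161.1 and 210.5 in the global and 330.4, 196.9, 266.3 and 420.2 in the orbital captures, with orbital capture 2 inside the global range. It differed by 0.55 ± 0.21 (adjusted p = 0.146), and by -0.02 ± 0.27 at its second probe set. Cav1, the coat protein of caveolae in endothelium, smooth muscle and fat cells, was between 1798.3 and 2160.3 in 7 captures and 3676.0 in orbital capture 4 (0.24 ± 0.20). Nos3, the endothelial nitric oxide synthase, was too dim to be tested, below the brightest bacterial control in 4 of 8 captures, and Sox17, a factor of arterial endothelium, was below it in all 8.

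**Figure D2:**
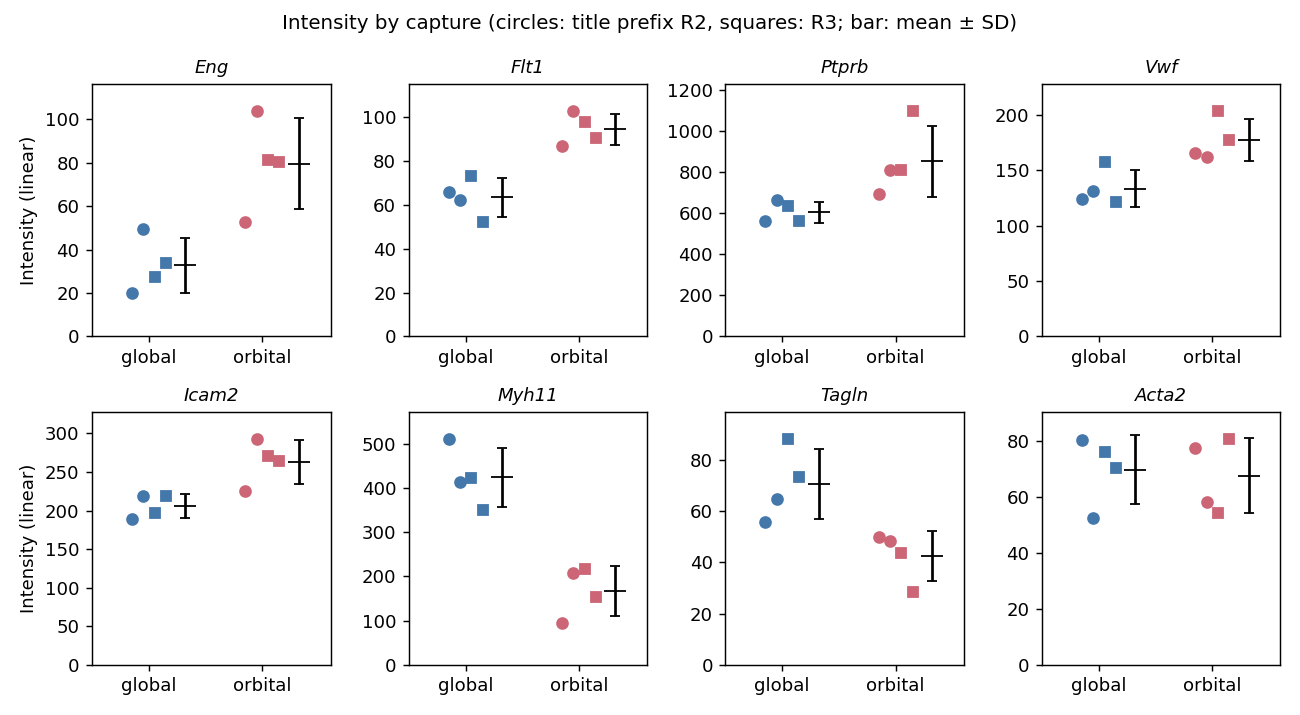
Linear intensity of 8 vascular genes in each capture, with global captures left and orbital captures right in each panel and the bar giving mean ± SD (n = 4). Eng, Flt1, Ptprb, Vwf and Icam2 are higher in every orbital capture, Myh11 and Tagln are lower in every orbital capture, and Acta2 overlaps.

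Among contractile genes of smooth muscle, Myh11 stood apart. Myh11, the myosin heavy chain of smooth muscle, had 511.2, 412.6, 422.9 and 349.2 in the global and 93.6, 207.8, 215.9 and 154.1 in the orbital captures. Every orbital value was lower than every global value, and orbital capture 1 was the lowest. The mean fell from 424 ± 66.7 (SD, n = 4) to 168 ± 56.6, a log2 change of -1.39 ± 0.23 (limma, adjusted p = 0.00267), or 2.62-fold lower, where 3.50% of all probe sets fell. It was -1.71 within prefix R2 and -1.07 within R3, and it passed without any single capture, with adjusted p between 0.00275 and 0.0112. Myosin heavy chains share sequence, and skeletal myosins are abundant in this tissue, so how far their RNA adds to the Myh11 signal was not tested. Tagln (transgelin), an actin-binding protein of smooth muscle, had 55.7, 65.0, 88.3 and 73.6 in the global and 49.8, 48.5, 43.6 and 28.5 in the orbital captures. The layers did not overlap, but the difference of -0.73 ± 0.25 did not pass (adjusted p = 0.0977), with -0.29 within prefix R2 and -1.17 within R3.

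The other contractile genes differed little or were too dim. Acta2, the smooth muscle actin, was 52.3 to 80.1 in the global and 54.0 to 80.6 in the orbital captures, nearly the same range, with a difference of -0.05 ± 0.22 and a 95% interval of -0.51 to 0.42. Smtn (smoothelin), found in contractile smooth muscle, differed by -0.38 ± 0.20 and Myl9, its regulatory myosin light chain, by -0.33 ± 0.21, both with overlapping layers. Mylk, the kinase that switches that light chain on, differed by -0.10 ± 0.15. Lmod1 (leiomodin), which seeds actin filaments, lay on the other side at 0.40 ± 0.21 (adjusted p = 0.296). Cald1, the actin regulator caldesmon, differed by 0.18 ± 0.12 at its brightest probe set and by -0.37 ± 0.17 at its second, so its direction is unsettled. Cnn1 (calponin) was too dim for the test, with 47.0, 26.4, 56.3 and 31.3 in the global and 2.0, 31.2, 16.5 and 30.9 in the orbital captures. Actg2, the enteric actin, was also too dim, with 27.1 to 51.4 in the global and 14.9 to 34.4 in the orbital captures. The actins are closely similar in sequence, and the skeletal actin Acta1, at 6756.4 to 13495.3, was bright on every array, so its part in the Acta2 and Actg2 signals was not tested.

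Pericyte genes showed no shared direction. Rgs5, a regulator of G protein signalling typical of pericytes, had 157.1, 312.1, 218.1 and 219.1 in the global and 174.8, 403.3, 274.6 and 252.3 in the orbital captures, with capture 2 the highest and capture 1 the lowest of either layer. The layers overlapped (0.26 ± 0.24, 95% interval -0.26 to 0.79). Mcam, an adhesion protein of the vessel wall, was 71.2 to 147.9 in the global and 79.0 to 124.9 in the orbital captures (0.23 ± 0.24). Notch3, the receptor that matures mural cells, was 71.8 to 117.9 and 74.9 to 89.5 (-0.22 ± 0.19), and Cspg4, the NG2 proteoglycan, differed by -0.08 ± 0.23. Abcc9, a subunit of ATP-sensitive potassium channels in mural cells and also in muscle fibres, was 1061.3 to 1453.9 in the global and 981.1 to 1436.4 in the orbital captures (-0.06 ± 0.15). Pdgfrb, the receptor that recruits pericytes, was too dim for the test, with 18.5 to 44.0 in the global and 29.8 to 39.9 in the orbital captures.

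Each capture was then described by the median deviation of a group's tested genes from their own means over the 8 captures (log2). For the endothelial genes it was -0.27, -0.10, 0.01 and -0.01 in global captures 1 to 4 and -0.04, 0.13, 0.22 and 0.28 in orbital captures 1 to 4. Orbital capture 1 thus lay within the global range, and the median layer difference of 0.28 became 0.42 without it. For the smooth muscle genes the deviation was 0.14, -0.09, 0.31 and 0.05 in the global and -0.15, -0.05, -0.28 and 0.07 in the orbital captures, which overlap. With orbital captures 1 and 2 alone, those with the lower Gapdh ratio (the beta actin ratio gave no such split), the median endothelial difference was 0.21. Those are also the orbital captures of prefix R2, set against global captures of both prefixes, and the fit was chosen after seeing the data. RNA length and prefix cannot be told apart here, and the part of RNA length in the endothelial difference was not tested. The pericyte genes ran from -0.14 to 0.13 in the global and from -0.29 to 0.21 in the orbital captures. The endothelial minus the smooth muscle deviation, a within-array difference between the gene groups, was -0.42, -0.01, -0.30 and -0.05 in the global and 0.11, 0.19, 0.50 and 0.21 in the orbital captures. The highest global value was -0.01 and the lowest orbital value 0.11, a narrow gap, and where 0 lies between them follows from the centring. Leaving out Eng and Myh11 these were 0.00 and 0.03. This difference is given without a test, because the genes were chosen with results of these data known. Whether it reflects arteriolar coat was not tested, and the layer differences of the smooth muscle genes ran from -1.39 to 0.40. Of the 19 endothelial genes, 16 were highest in an orbital capture, 7 of them in capture 3, 5 in capture 4, 4 in capture 2 and 0 in capture 1. Of the 13 smooth muscle and pericyte genes, 5 were highest in an orbital capture. These counts use the same values as the layer differences, and the share over all probe sets was not computed.

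**Figure D3:**
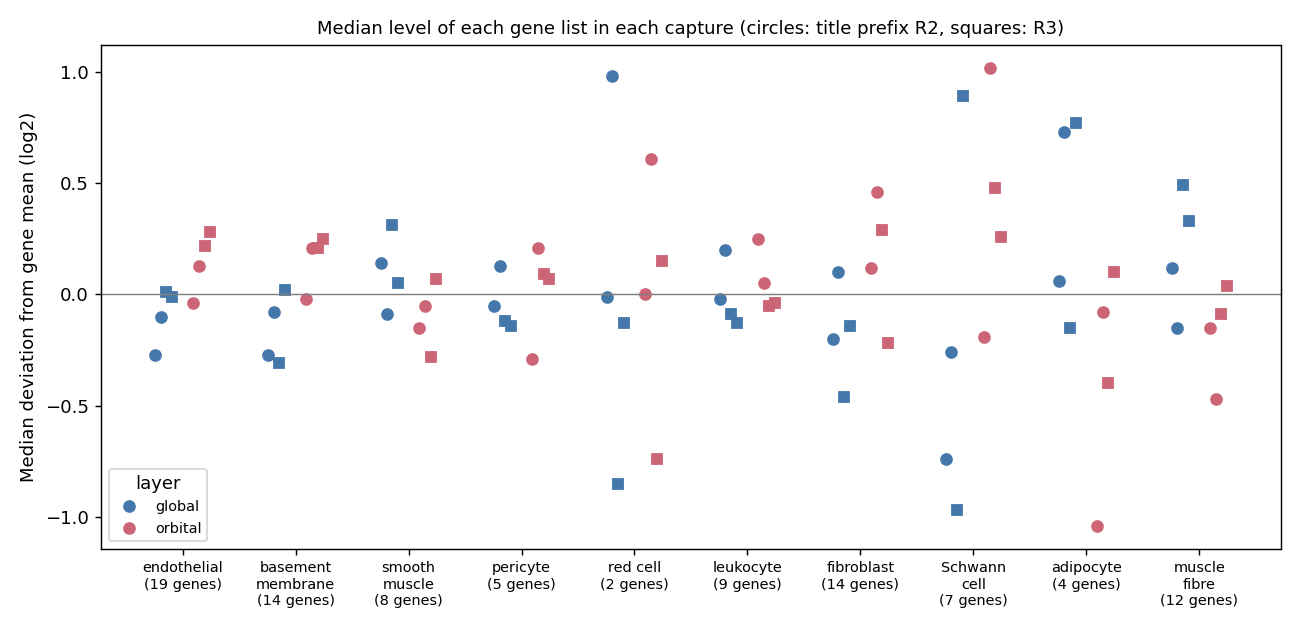
Median deviation (log2) of each gene list from its genes' means over the 8 captures, 1 point per capture, with the number of tested genes under each list. Endothelial and basement membrane points are mostly higher in orbital captures, while smooth muscle and pericyte points overlap between layers.

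Other cell types in the captures were read from marker lists. Over all probe sets tested, 3.91% rose and 3.50% fell (limma), and 21.6% had an unadjusted p under 0.05. The 4 red cell genes summed to 331 to 1251 in the global and 270 to 746 in the orbital captures, 0 of 2 tested passed (limma; 0 at an unadjusted p under 0.05), and Hbb, a globin chain, differed by 0.01 ± 0.45. The 14 leukocyte and macrophage genes summed to 1657 to 2783 and 1670 to 2145, and 0 of 9 tested passed (1 at an unadjusted p under 0.05). The 15 fibroblast genes summed to 6743 to 10655 in the global and 8323 to 12454 in the orbital captures, and 2 of 14 tested rose, Pi16 (1.36 ± 0.30, adjusted p = 0.0133) and Fmod (0.86 ± 0.24, adjusted p = 0.0472). Fmod did not pass when any capture other than global 3 and orbital 4 was left out (adjusted p 0.0721 to 0.140), nor with quantile (0.0660) or cyclic loess (0.0626) normalization or the title prefix as a block (0.0508). It was lost in 15 of 24 alternatives in all. Pi16 did not pass with orbital capture 3 left out (0.05). The fibroblast median difference of 0.28 equalled that of the endothelial genes. The 8 Schwann cell genes summed to 1393 to 5229 and 2713 to 5689, with a median of 0.84 and 1 of 7 rising, Cnp (0.84 ± 0.19), a call lost without orbital capture 3 (adjusted p = 0.0510). The 6 adipocyte genes summed to 574 to 1100 and 379 to 663, with a median of -0.76 and 0 of 4 passing (3 at an unadjusted p under 0.05). The 12 fibre genes summed to 69519 to 102929 and 58154 to 87415, with a median of -0.44, 3 falling and 1 rising. The part of these cells and of the photoreceptor signal in the vascular differences was not tested.

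Genes of the vessel's growth and adhesion signals outside the 42 gave 3 that passed. Of 14 tested other ligands and receptors of angiogenesis, 2 rose and 1 fell, with a median of 0.17. Over all probe sets tested, 3.91% rose and 3.50% fell. Acvrl1, the endothelial kinase receptor that works with endoglin, had 78.6, 91.2, 59.6 and 66.1 in the global and 92.1, 120.0, 155.3 and 138.1 in the orbital captures. The layers did not overlap, though orbital capture 1 was barely above global capture 2 (0.76 ± 0.20, adjusted p = 0.0382). Its difference was 0.31 within prefix R2 and 1.21 within R3, and the call was lost without any 1 of 6 captures, all but global capture 2 and orbital capture 1 (adjusted p 0.0660 to 0.119). The Acvrl1 call was lost in 13 of 24 alternatives in all, also without the filter, without trend and with orbital captures 3 and 4 averaged. Cxcl12, a chemokine that guides endothelial and immune cells, rose 2.01-fold, with 1357.4, 1924.2, 1509.6 and 1791.2 in the global and 2939.1, 3337.3, 2951.2 and 3960.3 in the orbital captures. The layers were far apart, and Cxcl12 passed without any single capture (1.0 ± 0.15, adjusted p = 0.00117). A second probe set of Cxcl12 differed by 0.43 ± 0.13 without passing (adjusted p = 0.0606). Angptl4, an inhibitor of lipoprotein lipase, fell from 92.0, 123.5, 95.8 and 168.4 to 32.2, 42.1, 75.9 and 57.0, with no overlap (-1.22 ± 0.28, adjusted p = 0.0158).

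Genes of oxygen sensing, through which tissue is known to control Vegfa, passed in both directions. Of 9 tested, 8 were above 0 and 1 below, with a median of 0.16, beside 53.1% above 0 over all probe sets tested. Among the 9, 2 rose and 1 fell, beside 3.91% rising and 3.50% falling. Hif1a, the oxygen-regulated subunit of the hypoxia-inducible factor, had 415.0, 350.5, 416.6 and 248.8 in the global and 532.0, 856.2, 535.6 and 761.2 in the orbital captures (0.90 ± 0.20, adjusted p = 0.0136). Vhl, which marks that subunit for destruction, had 185.7, 158.9, 185.8 and 272.7 in the global and 415.5, 381.1, 329.1 and 341.0 in the orbital captures (0.89 ± 0.17, adjusted p = 0.00535). Both were higher in every orbital capture. Egln3, a prolyl hydroxylase that acts before Vhl, had 1589.8, 1354.9, 1714.7 and 1614.8 in the global and 426.4, 586.1, 551.9 and 1045.1 in the orbital captures. It fell with no overlap, orbital capture 4 being the highest of its layer (-1.34 ± 0.22, adjusted p = 0.00220). Epas1, the related subunit of endothelium, differed by 0.06 ± 0.21, Egln1 by 0.09 ± 0.12 and Egln2 by 0.16 ± 0.13. These genes are also made by muscle fibres, and which cells carried the differences was not tested.

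**Figure D4:**
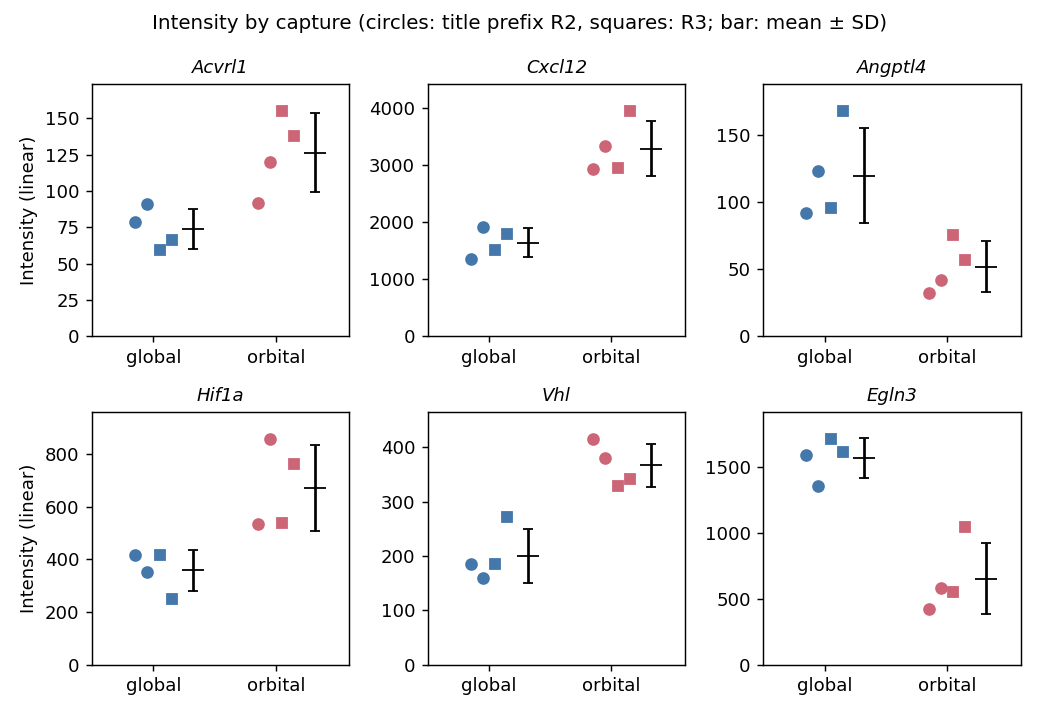
Linear intensity of 6 genes of vascular signalling and oxygen sensing in each capture, global captures left and orbital captures right, with the bar giving mean ± SD (n = 4). Acvrl1, Cxcl12, Hif1a and Vhl are higher and Angptl4 and Egln3 lower in every orbital capture.

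Lists of vessel segments were short. Of all probe sets tested, 53.1% were above 0, 3.91% rose and 3.50% fell (limma). Of 3 arterial markers tested, 3 were above 0 and 0 passed (limma; 1 at an unadjusted p under 0.05), led by the gap junction genes Gja4 (0.47 ± 0.21, adjusted p = 0.206) and Gja5 (0.22 ± 0.18). Of 5 capillary markers tested, all 5 were above 0 and 1 rose, Lpl, the lipase bound at the capillary wall but made by the fibres (0.78 ± 0.21, adjusted p = 0.0406). Lpl did not pass when any capture other than global 2 and orbital 3 was left out (adjusted p 0.0595 to 0.0965). Its call was lost in 11 of 24 alternatives in all, also without the filter and without trend. Car4, an enzyme on the capillary surface, was too dim for the test and lay lower in every orbital capture, with 38.7 to 64.7 in the global and 9.5 to 26.7 in the orbital captures. Of these 8 values, 4 were below the brightest bacterial control of their array. Of 4 venous markers tested, 0 passed (limma; 1 at an unadjusted p under 0.05), and Nr2f2, a factor of venous identity also found in other cells, had no overlap at -0.62 ± 0.18 (adjusted p = 0.0520). Nr2f2 passed in 8 of 24 alternatives, among them quantile normalization (0.0428), cyclic loess (0.0417) and leaving out orbital capture 2 (0.0270). Basement membrane, which endothelium and pericytes share but muscle fibres also have, was read from 14 genes. Of these, 13 were above 0, with a median of 0.30, beside 53.1% above 0 over all probe sets tested. Of the 14, 0 passed (limma; 6 at an unadjusted p under 0.05, beside 21.6% of all probe sets tested). Those 6 include the only gene of the list below 0, Col18a1 (-0.79 ± 0.35). The smallest adjusted p values of the basement membrane genes were 0.0603 for Col15a1 (0.50 ± 0.15) and 0.0826 for Lama4, the endothelial laminin chain (0.45 ± 0.14). Col15a1 passed in 3 of 24 alternatives, one of them without orbital capture 1 (0.0400). Which cells carried the basement membrane differences was not tested.

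Regulators and other cytoskeletal genes of smooth muscle fell in part. Of 16 tested, 4 fell and 0 rose, with a median of -0.20, beside 3.50% falling and 3.91% rising over all probe sets tested. Those that fell were Sncg (-0.84), Tpm2 (-0.80), Synm (-0.78) and Synpo2 (-0.75). Tpm2, a tropomyosin, had 652.3, 702.4, 805.6 and 776.7 in the global and 412.3, 430.3, 383.9 and 457.1 in the orbital captures (adjusted p = 0.00139). Synm, an intermediate filament protein, had 2623.3, 2807.6, 3104.3 and 2721.3 in the global and 1848.1, 1373.9, 1882.3 and 1478.6 in the orbital captures (adjusted p = 0.00317). Neither gene overlapped between layers. The Synpo2 call was lost without global capture 1 (adjusted p = 0.0534), 3 (0.0671) or 4 (0.0517), and the Sncg call was not rerun without single captures. Tpm2, Synm and Synpo2 are also genes of muscle fibres, and the fibre genes had a median difference of -0.44. The part of fibre RNA in these differences was not tested. Which cells carried the Sncg difference was not tested either. Srf, the transcription factor that drives smooth muscle genes, differed by 0.09 ± 0.14, while Csrp2, a smooth muscle LIM protein, lay on the other side with no overlap at 0.68 ± 0.21 (adjusted p = 0.0648).

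The layer difference was also compared between the title prefixes. An interaction term passed for 0 of 9520 probe sets (limma; 290 at an unadjusted p under 0.05), so that no vascular gene was shown to differ between R2 and R3. The median endothelial difference was 0.20 within R2 and 0.34 within R3, and that of the smooth muscle and pericyte genes was -0.03 and -0.10.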

How the data were processed

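Affymetrix RAE230A arrays were hybridised with T7-amplified RNA of laser captures, per the labels. The deposited table holds 1 linear intensity per probe set and array. The summarising software was not given in the sources used here. The authors had scaled the arrays, since 2% trimmed means differed by at most 0.00389%, and values were used as deposited. Scaling to one mean makes each level relative to the rest of its array, and uneven amplification changes levels between genes.

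Of 15923 probe sets, 57 controls were left out. Among the other 15866, 12783 were annotated to 1 gene symbol, 312 to several and 2771 to none, from a platform annotation that can be old. All 38 member symbols were found in a current RefSeq gene table. The test was lmFit and eBayes with trend (limma 3.58.1, R 4.3.3), with layer as the only term, tested on simulated data. Orbital captures 3 and 4 have nearly the same title and may be repeat arrays of the same capture. They were no closer than other orbital pairs (SD of the log2 difference 0.458 against 0.425 to 0.449). That spread cannot tell a repeat from a separate capture, and all 8 were counted. With the pair averaged, the endothelial median was 0.21, and 6 of 19 endothelial genes had an unadjusted p under 0.05 (limma). Members and lists were chosen with earlier results of these data known. The naming rule gave members that passed, did not overlap or had one of the 4 smallest p of their group with their values, other members by a difference or range, and up to 3 genes of each other list by smallest p. Capture values of Kdr, Aqp1, Gpihbp1, Vegfa and Cnn1 were given outside it. Sncg, Csrp2, Srf, Car4, Klf2, Epas1, Egln1, Egln2, Col18a1 and Acta1 were also named outside it, some after their values were seen. Alternatives were normalization (quantile, cyclic loess), pseudocounts of 16 and 64, the filter, eBayes settings, array weights, the title prefix as a block, captures averaged or left out, and the mean over probe sets. No genome was used.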

Additional observations from a re-analysis of the deposited data

Results flagged for a closer look

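In 8 of 172 groups of 4 captures checked, 1 capture stood far from the other 3 on the log2 scale, where chance alone flags about 1 in 20. Among the vascular genes, Kdr in global capture 3 was 360.4 beside 465.2 to 478.3, Plvap in global capture 2 was 14.2 beside 62.6 to 77.7, and Mcam in global capture 4 was 147.9 beside 71.2 to 78.3. Among other genes, Gja4 in orbital capture 2 was 264.7 beside 159.0 to 167.5. Elk3, an ETS factor of endothelium, was 219.5 in global capture 2 beside 155.5 to 162.4. Prox1, the factor of lymphatic identity, was 164.9 in global capture 3 beside 275.0 to 303.1, and 196.1 in orbital capture 4 beside 178.7 to 180.0. Cnp, a myelin enzyme, was 188.6 in orbital capture 4 beside 308.5 to 339.6.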

How the results depend on the processing

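Myh11 stayed called in every alternative except each title prefix alone (R2 adjusted p = 0.0700, R3 0.0528), with a difference of -1.71 to -1.07. Of 33 vascular genes, 19 kept their sign throughout, 14 changed it in at least 1 alternative, and 0 changed it while called. Flt1 passed without trend (0.0480), Aqp1 without orbital capture 2 (0.0395) and Ptprb without orbital capture 1 (0.0459). Endothelial genes called numbered 0 with the filter at the 60th percentile (11 tested, without Eng), 2 without trend, 0 with prefix R2 or R3 alone, 0 with orbital captures 1 and 2 or global captures 2 and 3 alone, and 0 to 2 leaving out 1 capture. With R2 alone 1 had an unadjusted p under 0.05, and with R3 alone 4. Smooth muscle and pericyte genes called numbered 0 with R2 or R3 alone. The endothelial median was 0.20 to 0.42 leaving out 1 capture. Probe sets called numbered 705, and 106 with R2, 170 with R3, 363 with orbital captures 1 and 2 alone and 342 with global captures 2 and 3 alone, and 461 (without global capture 3) to 725 leaving out 1 capture. The interaction gave 0 to 1 leaving out 1 capture. With the prefix as a replicate block 745 probe sets were called, and Eng (0.0254) and Myh11 (0.00429) still passed. The prefix is not known to mark animals. Fits on 1 prefix or on chosen captures were added after seeing the data. Dim genes such as Eng depend on the pseudocount (0.57 to 1.51 over all alternatives).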

Other observations

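Of 11 genes of vasoactive peptides and their receptors tested, 0 passed (limma; 2 at an unadjusted p under 0.05), with a median of -0.02. Ptgis, the prostacyclin synthase of the vessel wall, had 8.4 to 66.1 in the global and 58.1 to 198.2 in the orbital captures (1.99 ± 0.58, adjusted p = 0.0545), with a difference of 0.99 within prefix R2 and 3.0 within R3. It passed in 5 of 22 alternatives, among them with the title prefix as a block (adjusted p = 0.0299) and without global capture 2 (0.0171) or orbital capture 4 (0.0492). Its global captures 3 and 4 were below the brightest bacterial control. Ptgis averaged 33.6 in the global and 119 in the orbital captures, so it reached the filter of 39.4 only through the orbital captures. Ramp1, a partner of the receptor for the dilator peptide CGRP, differed by -0.39 ± 0.13 (adjusted p = 0.0969, and 0.0381 without orbital capture 1). Of 5 Notch pathway genes tested, 0 passed (0 at an unadjusted p under 0.05), and Hes1, a Notch target, differed by 0.43 ± 0.21. Of 4 lymphatic markers tested, 0 passed (1 at an unadjusted p under 0.05), with 2 above 0, 2 below and a median of 0.06. Prox1 differed by -0.44 ± 0.18, Pdpn by 0.32 ± 0.21 and Lyve1 by -0.19 ± 0.18. Of 9 endothelial transcription factors tested, 4 were above 0 and 5 below, with a median of -0.04. Where 3.50% of all probe sets fell and 3.91% rose, 1 of the 9 fell and 0 rose. That was Ets2, a factor found in many cell types, with 530.5, 533.5, 560.0 and 503.7 in the global and 351.9, 315.0, 394.5 and 352.7 in the orbital captures (-0.59 ± 0.12, adjusted p = 0.00770). Elk3 (0.36 ± 0.15, adjusted p = 0.185) and Klf4 (0.33 ± 0.15, adjusted p = 0.240) did not pass. Klf2, which responds to blood flow, differed by 0.20 ± 0.19.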
